A study of Rattus norvegicus with 12 samples.

Results

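The 49 genes described here encode the machinery that copies DNA in S phase. They were taken by gene name from a list that follows the steps of replication. No measured value enters that rule, but the list was chosen with earlier results of these data known. All 49 were present among the 16957 genes shared by the 3 deposited comparison tables, and all 49 passed the filter on low counts and were tested in each table. Sorted by step, 14 act in origin licensing, 7 in activation of the helicase, 19 as polymerases or other fork proteins, 4 in nucleotide supply and 4 in chromatin assembly, and 1 (E2f1) is a transcription factor that drives many of the others.

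The RNA came from whole lungs of 12 Sprague-Dawley rats, 9 weeks old, 3 in each of 4 groups. Every rat, controls included, had pulmonary arterial hypertension induced with monocrotaline (MCT), a plant toxin that injures the pulmonary endothelium, given once under the skin at 60 mg/kg, so no healthy lung is included. The vehicle group (Veh_923, Veh_924 and Veh_963) received PBS. The AngII group (Ang2_922, Ang2_931 and Ang2_933) received angiotensin II, the natural agonist of the angiotensin II type 1 receptor (AT1R), at 1 mg/kg/day. The TRV023 group (Trv_917, Trv_918 and Trv_930) received a peptide agonist that engages β-arrestin at AT1R without activating G proteins, at 10 µg/kg/min. The losartan group (Los_925, Los_964 and Los_965) received an AT1R antagonist at 10 mg/kg/day. The doses differed between the drugs, and any contrast between drugs below is one between groups as dosed. Libraries are named by their labels (group and animal number). They held 16106337 to 20096877 counted reads, and lung markers such as the surfactant genes were present in all of them. In bulk lung RNA, fewer cycling cells and less transcript per cycling cell cannot be told apart.

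A cell may copy each origin of replication only once per cycle. In G1 the origin recognition complex (Orc1 to Orc6), with Cdc6 and Cdt1, loads the ring of Mcm2 to Mcm7 onto DNA. At the start of S phase the kinase Cdc7, with Mcm10, Cdc45 and the GINS complex (Gins1 to Gins4), turns that ring into a moving helicase, behind which polymerases α, δ and ε copy the strands. Many of these genes are transcribed late in G1 by E2F factors, so their mRNA is widely used as a readout of how many cells in a tissue are cycling. Orc2 to Orc5 are made more evenly through the cycle.

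Many, but not all, promoters of these genes share sequence motifs. RefSeq promoters (build GRCr8, from 250 bases before to 50 bases after the annotated start) were found for 41 of the 49 genes, in 43 entries, and were searched on both strands for the E2F-type motifs TTTCCCGC, TTTCGCGC, TTTGCCGC and TTTGGCGC. At least 1 match lay in 20 of the 43 replication promoters (46.5%), against 2.14% of all 33469 promoters of the same length. In a list of other genes of the replication pathway the share was similar, at 39.6%. Among genes lower with TRV023 at an unadjusted p, Mcm10, Cdc45, Pcna, Rrm1 and Tk1 held no E2F-type match and are not shown. The windows below come from genes picked as both lower and holding a match, except Pold2, the gene higher with TRV023 at an unadjusted p. They are those of 4 genes of the helicase ring, of Uhrf1, which had the smallest p with TRV023, and of Pold2. Each is written 5′ to 3′ on the strand of its gene, with the E2F-type motif (in Pold2 another, named below) in capitals and bases around it in lower case. They lie at chr4:122918095-122918138 (Mcm2, minus strand), chr9:30733745-30733782 (Mcm3, minus), chr19:13488570-13488641 and chr19:13488775-13488812 (Mcm5, plus), chr13:42404450-42404521 (Mcm6, minus), chr9:1222963-1223124 (Uhrf1, plus) and chr14:84969097-84969219 (Pold2, minus).
Mcm2: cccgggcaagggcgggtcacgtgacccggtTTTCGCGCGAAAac
Mcm3: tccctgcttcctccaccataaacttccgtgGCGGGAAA
Mcm5, distal: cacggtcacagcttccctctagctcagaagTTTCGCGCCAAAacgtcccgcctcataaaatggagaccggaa
Mcm5, proximal: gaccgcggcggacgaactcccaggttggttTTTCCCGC
Mcm6: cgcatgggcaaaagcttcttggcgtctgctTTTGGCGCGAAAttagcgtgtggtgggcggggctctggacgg
Uhrf1: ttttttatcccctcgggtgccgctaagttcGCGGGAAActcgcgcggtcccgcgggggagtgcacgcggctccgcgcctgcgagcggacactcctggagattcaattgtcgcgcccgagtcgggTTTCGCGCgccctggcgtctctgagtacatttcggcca
Pold2: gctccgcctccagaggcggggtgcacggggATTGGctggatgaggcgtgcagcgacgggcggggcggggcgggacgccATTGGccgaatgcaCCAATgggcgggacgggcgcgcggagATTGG
In Mcm2, the distal Mcm5 window and Mcm6 the capitals are 2 overlapping matches, one on each strand, which together span 12 bases. The Pold2 window held no E2F-type match, and its capitals mark 4 copies of the CCAAT box in either orientation, the sequence bound by NF-Y. CCAAT lay in 60.5% of replication promoters and 37.5% of all promoters, and the promoters of Mcm3, Mcm5, Mcm6, Mcm7 and Uhrf1 also held it. The cell cycle homology region (TTTGAA or TTCGAA) of genes expressed late in the cycle lay in 16.3% of replication promoters, 72.7% of the promoters of a list of mitotic genes and 19.7% of all promoters. E2F-type matches in the mitotic list were at 2.27%, which is the level of promoters at large. The matches describe the letters in these windows and do not show that a factor was bound in these lungs.

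**Figure D1:**
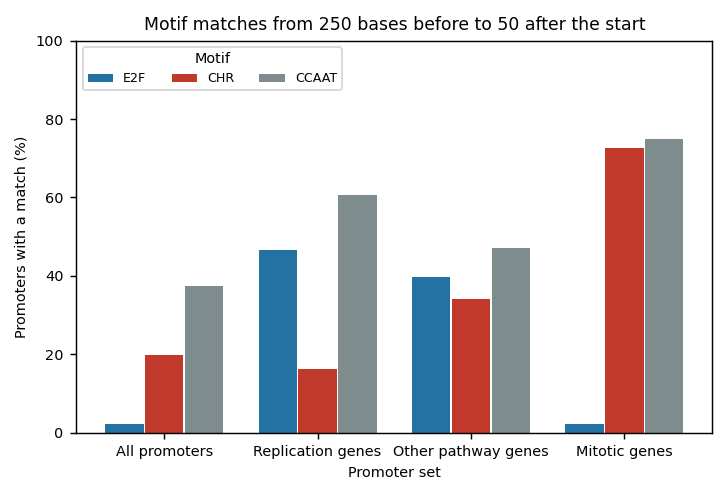
Bars give the percentage of promoters (vertical axis) with at least 1 match to each of 3 motifs, for all promoters, the replication genes, other genes of the replication pathway and mitotic genes. E2F-type matches stand at 46.5% in the replication genes and 2.14% in all promoters, while the cell cycle homology region (CHR) stands at 72.7% in the mitotic genes.

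Levels were compared between genes as FPKM, which divides reads by transcript length and library depth. In vehicle lungs the highest was Pcna, the sliding clamp that tethers polymerases to DNA, at 67.8 ± 6.60 FPKM (SD, n = 3). The lowest was Orc1, the origin recognition subunit that is made anew each cycle, at 1.21 ± 0.388 FPKM. Genes also differed in how far they moved from rat to rat. Over the 12 libraries, the SD of log2 CPM (counts scaled for depth by TMM) ran from 0.12 in Pold3 to 0.77 in Uhrf1, with a median of 0.35 that is near the 0.33 of all genes. The most variable were Uhrf1, Rrm2, Pole, Cdc7 and Cdc45, and the steadiest were Pold3, Orc5, Gins2, Orc2 and Rfc5.

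Libraries differed across the set as a whole. For each library, the log2 CPM of every gene relative to its mean over the 12 libraries was averaged over the 49 genes. Veh_923 and Veh_924 stood at 0.31 and 0.29, whereas Veh_963 stood at -0.14. Veh_963 was the lowest vehicle library in 39 of the 49 genes, as it was in 37.2% of all genes. Trv_917, Trv_918 and Trv_930 stood at -0.23, -0.32 and -0.14, so the highest TRV023 library was level with the lowest vehicle library. Ang2_922, Ang2_931 and Ang2_933 stood at -0.0039, 0.082 and 0.26. In the losartan group Los_925 and Los_965 stood at 0.18 and 0.096, while Los_964 was the lowest of all 12 at -0.38 and was the lowest losartan library in 40 of the 49 genes, as it was in 37.8% of all genes. Veh_963 also had the lowest summed FPKM of 11 neutrophil markers among vehicle lungs (575, against 1631 and 2650). That sum was mostly Lcn2 (415 FPKM, against 1297 and 2499), and the other neutrophil markers did not all put Veh_963 lowest. Of 7 smooth muscle markers, Veh_963 had the highest sum (2765, against 749 and 1104). Los_964 had the highest summed neutrophil markers of its group (2949, against 1723 and 458), again mostly Lcn2 (2228, against 1518 and 362). The part of these cell types in the library differences was not tested. The counts and medians of each comparison that involves Veh_963 or Los_964 are given below with and without them.

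**Figure D2:**
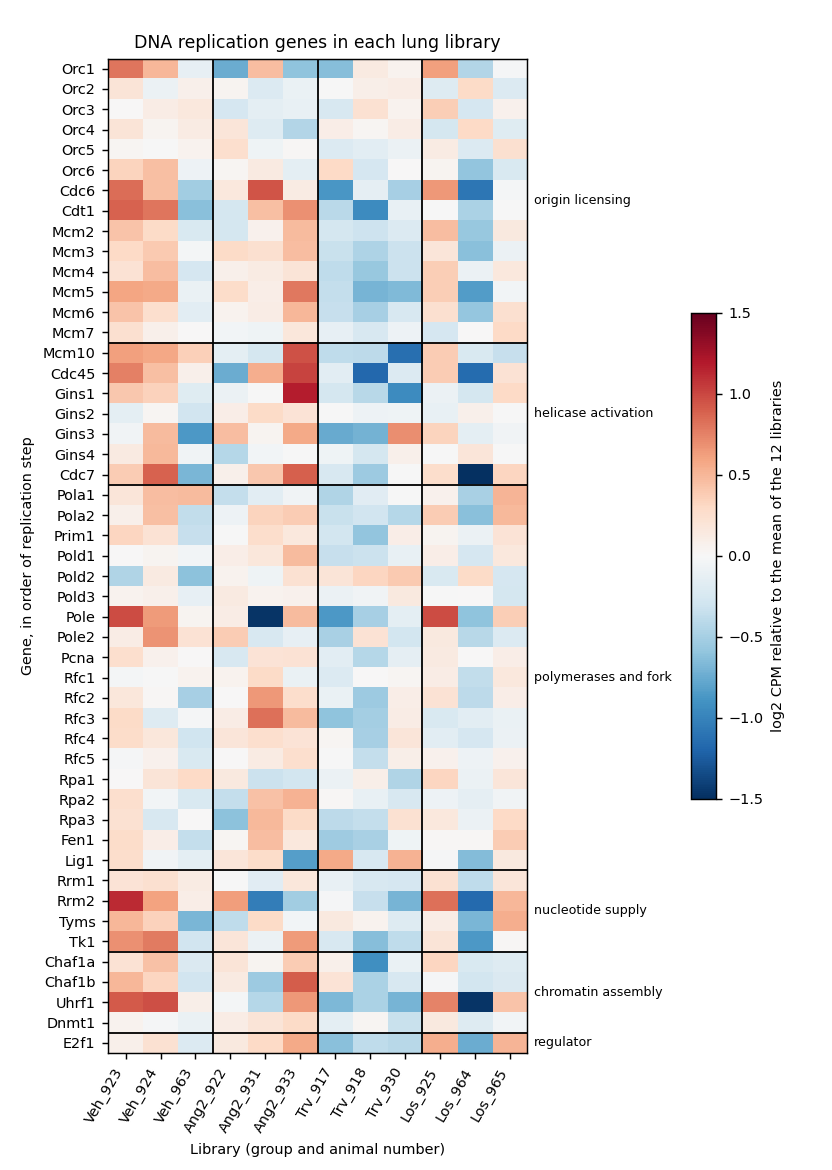
Each row is 1 of the 49 replication genes, grouped by step, and each column 1 library; color gives log2 CPM relative to the mean of the 12 libraries (blue lower, red higher, scale from -1.5 to 1.5). The 3 TRV023 columns and that of losartan library Los_964 are mostly blue, and those of vehicle libraries Veh_923 and Veh_924 mostly red.

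With TRV023, replication genes lay below vehicle in 46 of the 49 cases, and their log2 fold changes had a median of -0.36. Over all genes tested, 50.3% lay below vehicle and the median was -0.00. No single replication gene passed Benjamini-Hochberg adjustment over all genes by the edgeR quasi-likelihood test (0 of 49, smallest adjusted p = 0.467), and over all genes that test called 0.00658%. At an unadjusted p under 0.05, 16 of the 49 were lower (32.7%), where 2.96% of all genes were lower, and 1 was higher, where 2.61% of all genes were. DESeq2 called 2 of the 49, Mcm5 and Uhrf1, both lower, and 0.712% of all genes in either direction, while limma-voom and limma on log2(FPKM + 1) called 0. Counts of genes without overlap between groups, here and below, are on CPM scaled by TMM. All 3 TRV023 libraries lay below all 3 vehicle libraries in 17 genes (34.7%, with 5.56% of all genes). They lay above them in 1 gene (4.69% of all genes). Veh_923 and Veh_924 both lay above every TRV023 library in 31 genes, against 12.3% of all genes. The median was -0.43 without Veh_963. The count of 16 fell to 8 when Veh_923 was left out and to 9 without Veh_924, and was 23 without Veh_963.

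**Figure D3:**
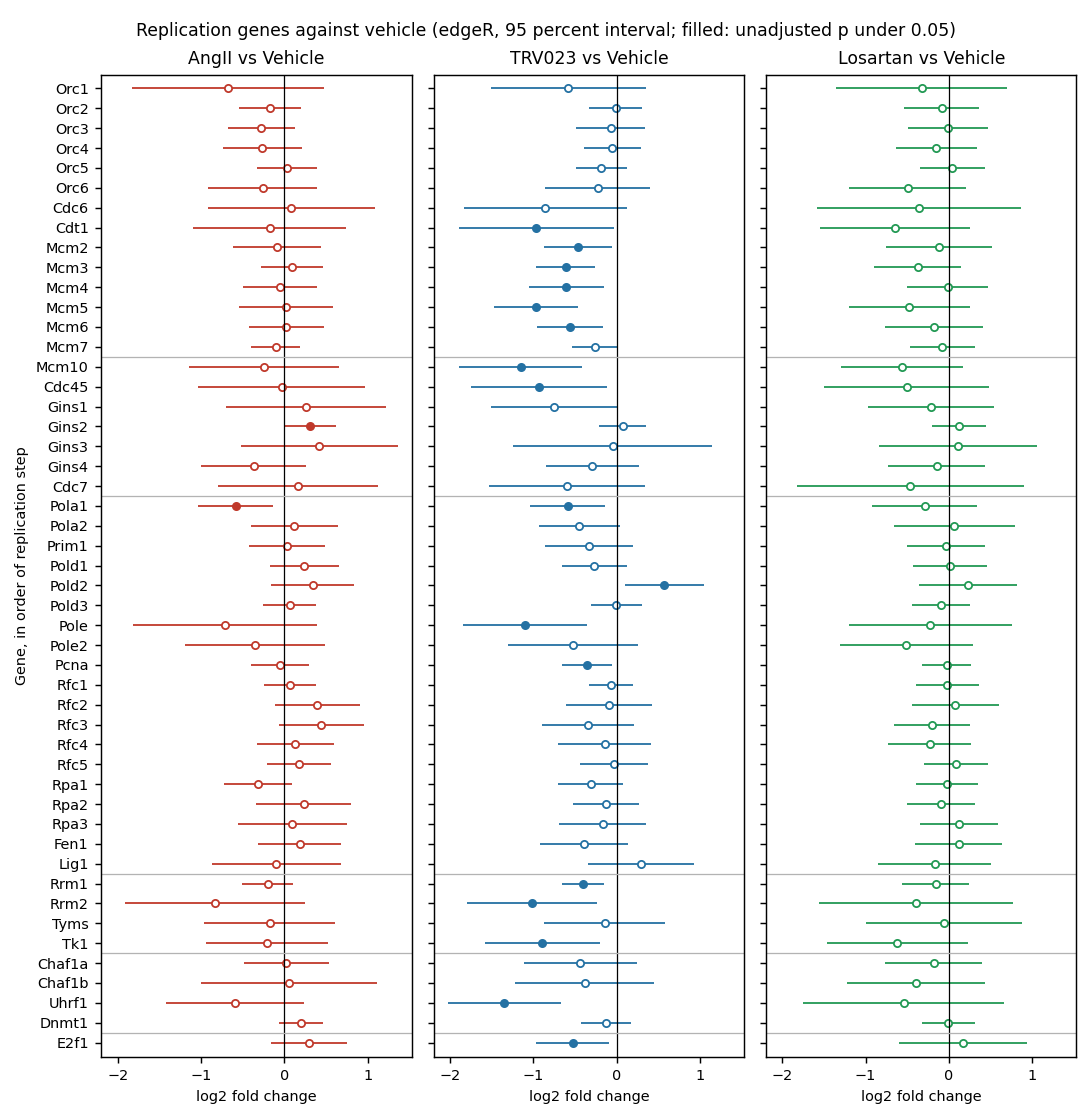
Points give the log2 fold change of each replication gene against vehicle (horizontal axis) in the AngII, TRV023 and losartan groups, with the 95% interval from edgeR; filled points have an unadjusted p under 0.05. With TRV023, 46 of 49 points lie to the left of 0 and 16 of those are filled, whereas AngII has 1 filled point on each side and losartan none.

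Within origin licensing, the helicase ring and the loader Cdt1 held all 6 genes lower at an unadjusted p, and the core origin recognition subunits held none. The median log2 fold change was -0.58 for Mcm2 to Mcm7 and -0.06 for Orc2 to Orc5. Mcm5, a subunit at the gate through which the ring opens, measured 12.7, 12.4 and 7.76 FPKM in Veh_923, Veh_924 and Veh_963 and 6.33, 5.29 and 5.22 FPKM in Trv_917, Trv_918 and Trv_930. All TRV023 values were below all vehicle values, and the log2 fold change was -0.96 ± 0.22 (SE; edgeR adjusted p = 0.499; DESeq2 adjusted p = 0.0245). Mcm3, its neighbor in the ring, measured 10.7, 11.3 and 8.43 FPKM with vehicle and 6.64, 6.43 and 6.81 FPKM with TRV023. These groups did not overlap either, and the TRV023 values were tightly grouped (log2 fold change -0.61 ± 0.15, edgeR adjusted p = 0.578). Mcm6 measured 14.5, 12.7 and 9.47 FPKM with vehicle and 8.17, 7.74 and 8.91 FPKM with TRV023, again without overlap but with Veh_963 close to the TRV023 range (log2 fold change -0.56 ± 0.17, edgeR adjusted p = 0.698).

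The remaining subunits of the ring lay on the same side. The log2 fold change was -0.60 for Mcm4, -0.46 for Mcm2 and -0.26 for Mcm7, of which Mcm7 missed an unadjusted p of 0.05 (edgeR adjusted p = 0.909). Mcm7 is the host of the microRNA genes Mir25, Mir93 and Mir106b and overlaps Ap4m1 on the opposite strand, so its reads may not all be its own. Cdt1, which brings the ring to the origin, measured 9.35, 8.80 and 3.22 FPKM with vehicle and 3.66, 2.67 and 4.57 FPKM with TRV023. Veh_963 fell inside the TRV023 range for Cdt1, and the log2 fold change was -0.97 ± 0.40 (edgeR adjusted p = 0.870). Its partner Cdc6, an ATPase of the loading reaction, was at -0.86 and did not reach an unadjusted p of 0.05 (edgeR adjusted p = 0.938). Orc1 was at -0.58, Orc6 at -0.23 and Orc2 at -0.01, none of them past that threshold.

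Helicase activation genes had a median log2 fold change of -0.59 with TRV023, and 2 of 7 were lower at an unadjusted p. Mcm10, which takes part in opening the duplex, measured 1.69, 1.63 and 1.39 FPKM with vehicle and 0.803, 0.845 and 0.473 FPKM with TRV023. Here all 3 vehicle rats, Veh_963 included, stood well clear of the TRV023 rats (log2 fold change -1.15 ± 0.32, edgeR adjusted p = 0.617). Cdc45, a constant part of the moving helicase, measured 5.12, 4.09 and 3.12 FPKM with vehicle and 2.58, 1.32 and 2.53 FPKM with TRV023, without overlap (log2 fold change -0.93 ± 0.36, edgeR adjusted p = 0.822). The GINS subunits did not share a direction. Gins1 was at -0.75 and Gins4 at -0.29, while Gins2 was at 0.07 and Gins3 at -0.05, with none at an unadjusted p under 0.05.

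**Figure D4:**
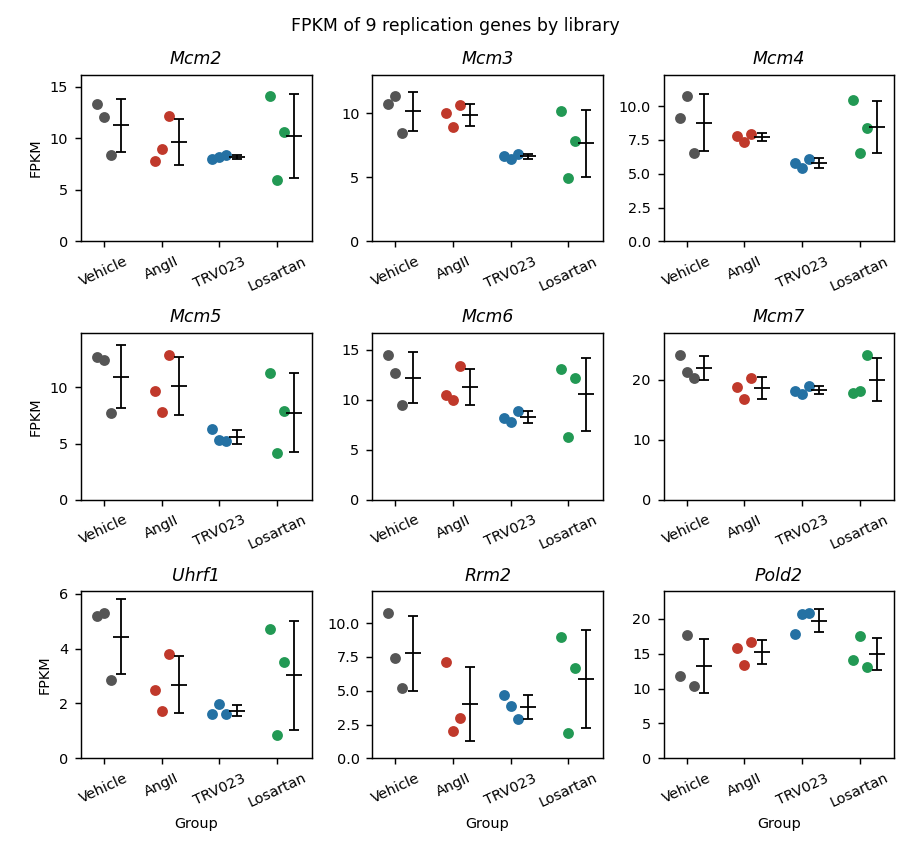
Dots give FPKM (vertical axes, from 0) of 9 replication genes in each library by group, with the group mean and SD beside them (n = 3). In Mcm3, Mcm4, Mcm5, Mcm6, Mcm7, Uhrf1 and Rrm2 the TRV023 dots lie below every vehicle dot, in Mcm2 they meet the lowest vehicle dot, and in Pold2 they lie above.

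The polymerase and fork genes had a median log2 fold change of -0.27, with 3 of 19 lower and 1 higher at an unadjusted p. Pole, the catalytic subunit of the leading strand polymerase ε, measured 1.83, 1.42 and 0.940 FPKM with vehicle and 0.481, 0.659 and 0.810 FPKM with TRV023. The groups did not overlap, though Veh_963 was near Trv_930 (log2 fold change -1.10 ± 0.32, edgeR adjusted p = 0.656). Pola1, the catalytic subunit of polymerase α, which lays down primers with primase, measured 4.29, 5.17 and 5.24 FPKM with vehicle and 2.67, 3.43 and 3.70 FPKM with TRV023. In this gene Veh_963 was the highest vehicle library (log2 fold change -0.59 ± 0.20, edgeR adjusted p = 0.723). Pcna was lower by a smaller amount, at 75.2, 65.6 and 62.6 FPKM with vehicle and 54.6, 47.8 and 56.3 FPKM with TRV023 (log2 fold change -0.36 ± 0.13, edgeR adjusted p = 0.811).

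Pold2, the second subunit of the lagging strand polymerase δ, ran the other way. It measured 11.8, 17.6 and 10.4 FPKM with vehicle and 17.8, 20.6 and 20.8 FPKM with TRV023, and the groups were separated only narrowly, between Veh_924 and Trv_917. Its log2 fold change was 0.57 ± 0.21 (edgeR adjusted p = 0.789). The other δ subunits did not share that direction, with Pold1 at -0.27 and Pold3 at -0.01. The unadjusted p of Pold2 was not under 0.05 when Veh_923, Veh_963, Trv_918 or Trv_930 was left out, so that the count of higher genes was then 0. The clamp loader Rfc1 to Rfc5 (median -0.09) and the single-strand binding complex Rpa1 to Rpa3 (median -0.17) had no member at an unadjusted p under 0.05. Fen1 and Lig1, which trim and seal Okazaki fragments, were at -0.39 and 0.29, and neither reached that threshold.

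In nucleotide supply, 3 of 4 genes were lower at an unadjusted p and the median log2 fold change was -0.65. Rrm1, the large subunit of ribonucleotide reductase, measured 19.9, 20.2 and 18.6 FPKM with vehicle and 15.4, 14.8 and 14.2 FPKM with TRV023. Both groups were compact and apart, with Veh_963 inside the vehicle cluster (log2 fold change -0.40 ± 0.11, edgeR adjusted p = 0.595). Rrm2, the small subunit that is limiting in S phase, measured 10.7, 7.38 and 5.18 FPKM with vehicle and 4.66, 3.90 and 2.91 FPKM with TRV023 (log2 fold change -1.02 ± 0.34, edgeR adjusted p = 0.723). Tk1, the thymidine salvage kinase, measured 18.6, 19.8 and 9.33 FPKM with vehicle and 9.39, 7.53 and 8.70 FPKM with TRV023. For Tk1 Veh_963 lay inside the TRV023 range (log2 fold change -0.89 ± 0.30, edgeR adjusted p = 0.731). Tyms, which makes thymidylate de novo, was at -0.14 ± 0.32 and did not differ beyond its error.

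Among chromatin assembly genes, with a median log2 fold change of -0.41, 1 of 4 was lower at an unadjusted p, namely Uhrf1, which brings the maintenance methylase Dnmt1 to newly copied DNA. Uhrf1 measured 5.17, 5.29 and 2.86 FPKM with vehicle and 1.62, 1.98 and 1.63 FPKM with TRV023, without overlap. Its log2 fold change of -1.35 ± 0.29 had the smallest p of the 49 genes (edgeR adjusted p = 0.467; DESeq2 adjusted p = 0.0085). Dnmt1 itself was at -0.13 ± 0.13. Chaf1a, the large subunit of the CAF-1 histone chaperone, measured 5.86, 6.75 and 4.27 FPKM with vehicle and 5.12, 2.70 and 4.61 FPKM with TRV023, with overlap (log2 fold change -0.44 ± 0.30, edgeR adjusted p = 0.979). E2f1 measured 6.28, 6.93 and 5.09 FPKM with vehicle and 3.69, 4.65 and 4.35 FPKM with TRV023, without overlap (log2 fold change -0.53 ± 0.19, edgeR adjusted p = 0.803). Of the genes lower at an unadjusted p, 13 had a promoter in RefSeq and 8 of these held an E2F-type match, against 12 of the 28 other genes of the set. CCAAT lay in 10 of the 13 and 14 of the 28.

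Genes that act beside these in the pathway, taken from a list of 55 gene models, lay nearer to vehicle, at a median log2 fold change of -0.21. With TRV023, 8 of 55 were lower at an unadjusted p (2.96% of all genes) and 0 higher (2.61% of all genes). Of these 55, 0 were called by edgeR and 1 by DESeq2 (0.712% of all genes). Those with the smallest p were Ccna2, the S and G2 cyclin (log2 fold change -1.37), the APC/C inhibitor Fbxo5 (-0.94) and the alternative clamp loader subunit Dscc1 (-0.98). The 46 mitotic genes tested lay further from vehicle than the replication genes, at a median of -0.97, with 41 lower at an unadjusted p, 0 called by edgeR and 20 by DESeq2. Among them Top2a, the decatenating topoisomerase, was at -1.50 and the proliferation marker Mki67 at -0.73. Markers of other cell types were read in the same fit. Of 11 neutrophil markers 5 were higher at an unadjusted p and 3 were called by DESeq2 (median log2 fold change 1.16). None of the 11 was at 0 in all libraries. Their summed FPKM overlapped between vehicle (575 to 2650) and TRV023 (1151 to 1861). That sum was mostly Lcn2, the only marker of the 11 below vehicle (log2 fold change -0.36), so it says little of the other markers. The 7 smooth muscle markers had a median of -0.74 with 0 lower at an unadjusted p, and their summed FPKM was 749 to 2765 with vehicle and 807 to 1320 with TRV023. Of 6 alveolar type 1 markers 2 were higher at an unadjusted p (median 0.25, with summed FPKM 2885 to 3123 with vehicle and 3142 to 4326 with TRV023). Shifts from vehicle were not all particular to TRV023. The neutrophil median was 0.61 with AngII and 0.78 with losartan, and that of smooth muscle -0.77 and -0.34. The type 1 median was -0.11 with AngII and 0.34 with losartan (summed FPKM 2442 to 2847 and 3564 to 3891). The part of these cell types in the replication genes was not tested.

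**Figure D5:**
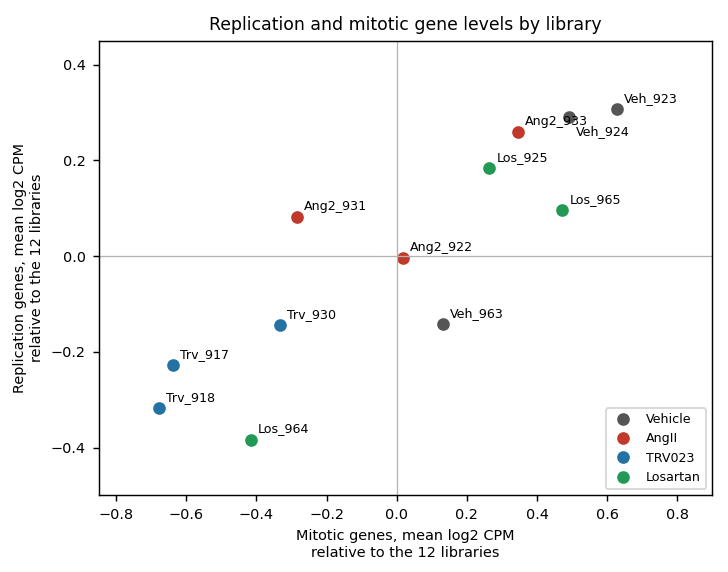
Each dot is 1 library, placed by the mean log2 CPM, relative to the 12 libraries, of the 47 mitotic gene models (horizontal axis) and of the 49 replication genes (vertical axis), colored by group. The 3 TRV023 libraries and losartan library Los_964 sit at the lower left, and vehicle libraries Veh_923 and Veh_924 at the upper right.

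With AngII the replication genes lay on both sides of vehicle, with 23 of 49 below it (52.6% of all genes) and a median log2 fold change of 0.02, where all genes had -0.02. edgeR, DESeq2, limma-voom and limma on log2(FPKM + 1) each called 0 of 49, where edgeR called 0.0133% of all genes and DESeq2 1.42% (smallest adjusted p among the 49 = 0.372). At an unadjusted p under 0.05, 1 gene was lower (5.39% of all genes) and 1 higher (6.54% of all genes). The lower gene was Pola1, at 2.80, 2.92 and 3.21 FPKM in Ang2_922, Ang2_931 and Ang2_933, below the lowest vehicle value of 4.29 FPKM (log2 fold change -0.58 ± 0.20, edgeR adjusted p = 0.372). On CPM scaled by TMM, all 3 AngII libraries lay below vehicle in 2 genes (Orc3 and Pola1, with 9.17% of all genes). They lay above it in 3 (Gins2, Pold1 and Dnmt1, with 9.46% of all genes). In FPKM, Rrm1 (13.2 to 17.1, against 18.6 to 20.2 with vehicle), Gins4 and Mcm7 also lay wholly below vehicle. Pold1 (4.48 to 5.64, against 4.44 to 4.72) and Dnmt1 overlapped it in FPKM. The higher gene was Gins2, at 11.7, 12.2 and 11.8 FPKM with AngII and 10.4, 11.7 and 9.39 FPKM with vehicle, a small separation (log2 fold change 0.31 ± 0.13, edgeR adjusted p = 0.416). The sign of the median rested on single libraries. Without Veh_963, 33 of 49 lay below vehicle and the median was -0.15; it was -0.11 without Ang2_933, -0.03 without Ang2_931 and 0.09 without Ang2_922. With library totals in place of TMM, 36 of 49 lay below vehicle and the median was -0.11, where the median of all genes was -0.16; relative to all genes it was 0.04, against 0.05 with TMM. Both counts at an unadjusted p depended on single libraries. The lower count was 0 without Veh_924, 3 without Ang2_922 and 2 without Ang2_933, and it was 5 with limma on log2(FPKM + 1) and 3 with library totals. The higher count was 0 without Veh_923, Ang2_931, Ang2_933 or Veh_963, 4 without Ang2_922 and 2 without Veh_924.

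Steps did not share a direction with AngII. All 5 Rfc subunits lay above vehicle with TMM (median 0.18), but 3 of 5 did with library totals, and all 4 nucleotide supply genes below it (median -0.20), and neither group had a member at an unadjusted p under 0.05. Rrm2 measured 7.14, 2.00 and 2.97 FPKM in Ang2_922, Ang2_931 and Ang2_933, a range wide enough to overlap vehicle (log2 fold change -0.83 ± 0.48, edgeR adjusted p = 0.500). Dnmt1 measured 11.7, 11.3 and 12.4 FPKM with AngII and 11.95, 11.3 and 10.6 FPKM with vehicle; after TMM scaling all 3 AngII libraries lay above vehicle (log2 fold change 0.20 ± 0.12, edgeR adjusted p = 0.501). The Mcm2 to Mcm7 median was -0.02. In the rest of the pathway 4 of 55 genes were lower (5.39% of all genes) and 3 higher (6.54% of all genes) at an unadjusted p. The smallest p belonged to the histone chaperone Rbbp7 (-0.31), the RNase H2 subunit Rnaseh2a (0.38) and the clamp unloader Atad5 (-1.26). The mitotic list had a median of -0.35 with 12 of 46 lower. Of 6 club and ciliated cell markers 5 were lower at an unadjusted p (median -1.05; summed FPKM 13137 to 30947 with vehicle and 6809 to 14103 with AngII). Of 8 T and NK cell markers 2 were higher (summed FPKM 119 to 133 and 123 to 159), as were 2 of 6 macrophage markers (760 to 939 and 902 to 1140), and none found was at 0 in all libraries. Their part in the replication genes was not tested. These AngII values and those of TRV023 share the same 3 vehicle libraries.

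In losartan lungs no replication gene reached an unadjusted p under 0.05 against vehicle (0 lower, where 0.963% of all genes were, and 0 higher, where 0.686% were). edgeR, DESeq2, limma-voom and limma on log2(FPKM + 1) called 0 of 49, with 0% of all genes called by edgeR and 0.0442% by DESeq2. No gene of the 49 had all 3 losartan libraries below vehicle (0, with 2.99% of all genes) or above it (0, with 2.78% of all genes). The median log2 fold change was -0.15, with 38 of 49 below vehicle (48.7% of all genes). That median was -0.00 without Los_964, -0.04 without Veh_923, -0.10 without Veh_924 and -0.23 without Veh_963. The count of lower genes was 3 without Los_925 and 2 without Veh_963, and that of higher genes was 1 without Los_964. The spread within the group was wide: Uhrf1 measured 4.71, 0.841 and 3.52 FPKM in Los_925, Los_964 and Los_965, and Mcm5 measured 11.3, 4.19 and 7.87 FPKM. In 18 of the 49 genes Los_964 lay below all 3 TRV023 libraries, against 28.9% of all genes. In the rest of the pathway 0 of 55 passed an unadjusted p of 0.05 in either direction, and the smallest p belonged to Dscc1 (log2 fold change -0.82), Rnaseh2b (-0.30) and the primase subunit Prim2 (-0.40).

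Set directly against AngII in a fit of all 12 libraries, TRV023 had lower replication genes in 39 of 49 cases (49% of all genes), with a median log2 fold change of -0.36. edgeR called 0 of 49 (0% of all genes; smallest adjusted p = 0.281), as did DESeq2 (1.36% of all genes), limma-voom and limma on log2(FPKM + 1). At an unadjusted p under 0.05, 11 were lower (22.4%; 5.43% of all genes) and 0 higher (5.43% of all genes). The 11 were Mcm3, Mcm4, Mcm5, Mcm6, Mcm10, Gins1, Pold1, Rfc3, Fen1, Dnmt1 and E2f1. Mcm5 stood at 9.67, 7.78 and 12.9 FPKM with AngII, above every TRV023 rat (log2 fold change -0.99 ± 0.30, edgeR adjusted p = 0.293). Mcm3 stood at 10.01, 8.89 and 10.6 FPKM with AngII, also above every TRV023 rat (log2 fold change -0.71 ± 0.20, edgeR adjusted p = 0.281). E2f1 stood at 6.24, 6.32 and 7.81 FPKM with AngII, again clear of TRV023 (log2 fold change -0.83 ± 0.29, edgeR adjusted p = 0.332). Pola1, by contrast, was at -0.01 ± 0.25 between these drugs, and Rrm2 at -0.19 ± 0.53. On CPM scaled by TMM, all 3 TRV023 libraries lay below all 3 AngII libraries in 19 genes (38.8%, with 8.43% of all genes). They lay above them in 0 (7.96% of all genes). Of the 19, Orc5, Mcm7, Mcm10, Rfc3, Tk1, Uhrf1 and Dnmt1 overlapped between these groups in FPKM. Pold2 lay above AngII in FPKM (17.8 to 20.8, against 13.3 to 16.7). The count of 11 was 5 without Ang2_933 and 18 without Ang2_922, and the median was -0.23 without Trv_918. In this contrast 6 of 7 gene models of club and ciliated cell markers were higher with TRV023 at an unadjusted p (median 1.41; summed FPKM 18009 to 32193, against 6809 to 14103 with AngII). T and NK cell markers were lower in 5 of 9 and higher in 1 (median -0.63; 97.1 to 144, against 123 to 159), and B and plasma cell markers in 3 of 6 (median -1.12; 159 to 217, against 179 to 231). Their part in the result was not tested. With library totals in place of TMM the median was -0.21, where the median of all genes rose by 0.14 log2 units to 0.15; relative to all genes it was -0.36, against -0.37 with TMM.

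Against losartan, TRV023 was lower at an unadjusted p under 0.05 in 4 replication genes (Mcm4, Pcna, Fen1 and E2f1; 2.27% of all genes) and higher in 0 (2.29% of all genes), with 0 called by edgeR, DESeq2, limma-voom or limma on log2(FPKM + 1). edgeR called 0% of all genes there and DESeq2 0.0769%. The median was -0.24, with 41 of 49 below losartan (51.5% of all genes). On CPM scaled by TMM, all 3 TRV023 libraries lay below losartan in 5 genes (Mcm4, Mcm10, Gins1, Pcna and Fen1, with 4.14% of all genes). They lay above it in 0 (3.87% of all genes). In FPKM, Mcm10, Gins1 and Fen1 overlapped between the groups, and Pold2 lay narrowly above losartan (17.8 to 20.8, against 13.1 to 17.5). The median was -0.10 without Los_925 and -0.35 without Los_964, and -0.40 with the animal number series as a covariate. The count of 4 was 12 without Los_964, 1 without Trv_917, Trv_918 or Los_965, and 2 without Veh_924 or Los_925. AngII exceeded losartan at an unadjusted p in 2 genes (4.69% of all genes), Mcm3 (log2 fold change 0.48) and the clamp loader subunit Rfc3 (0.66), and was lower in 0 (4.49% of all genes), with 0 called by any of the 4 tools where edgeR called 0% of all genes and DESeq2 0.64%. The median there was 0.12 (0.01 with library totals, or 0.12 relative to all genes against 0.14 with TMM), with 16 of 49 below losartan (51.9% of all genes). The count of 2 was 1 without Ang2_931, Ang2_933 or Los_964, 3 without Ang2_922 and 4 without Los_925. The median was 0.04 without Ang2_933, 0.06 without Los_964, and 0.20, 0.20 and 0.21 without Ang2_922, Los_965 and Los_925. On CPM scaled by TMM, all 3 AngII libraries lay below losartan in 1 gene (Gins4, with 5.73% of all genes). They lay above it in 5 (Mcm3, Gins2, Pold3, Rfc3 and Rfc4, with 6.45% of all genes). Of these, Mcm3 and Pold3 overlapped between the groups in FPKM. With 3 rats a group, the smallest 2-sided p of an exact permutation test of any single gene is 0.1, so such a test could not reach 0.05 in any of these comparisons.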

How the data were processed

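Total RNA of about 10 mg of lung per rat was sequenced. For each drug the authors deposited 1 table with read counts and FPKM per gene for 6 libraries, beside fold changes and p-values of their own, which were not used. Which aligner, counter, strand setting, build and annotation they used is, in the sources used here, not given. All genes of the deposited counts were fitted with edgeR 4.0.16 (R 4.3.3; filterByExpr, TMM, quasi-likelihood test, Benjamini-Hochberg, threshold 0.05), 1 fit per table; drugs were contrasted in 1 fit of 12 libraries. The labels name 1 rat per library, so p-values measure the spread between rats. DESeq2 1.42.0, limma 3.58.1 (voom, and log2(FPKM + 1) where the mean FPKM reached 1), other scalings, other filters, each library left out, and the 3 rats of the highest animal numbers left out or set apart by a covariate were alternatives. The edgeR script was tested on simulated data. The exact infusion schedule of the sequenced rats was not stated separately from that of the hemodynamic study.

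Genes given in every library were the 3 with the smallest unadjusted edgeR p against vehicle in each step, and any gene called by edgeR or DESeq2; others were named after their values were seen. Members and gene lists were chosen with earlier results of these data known. Mcmbp, Hells, Tfdp1, Hmmr and Cks2 were not found by name in the tables. Library totals ranged from 16106337 to 20096877 counts, and the 49 genes had 22 to 1874 counts per library.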

Additional observations from a re-analysis of the deposited data

How the results depend on the processing

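Over 712 recomputed values of 40 results, 648 stayed within the spread between replicates, within 1.5 times a count or on their side of the threshold. Of the rest, 62 moved beyond that, 2 became called and 0 called values changed sign. No gene of the set was called in the main fits, so counts of called genes and single genes had little room to move. Counts at an unadjusted p moved in 12 of 16 alternatives for genes higher with AngII against vehicle, and in 2 of 16 for genes lower with TRV023. Among the medians, which have no test, 9 of 114 had the other sign, 7 for AngII against vehicle and 2 for AngII against losartan. The number of replication genes called for TRV023 against vehicle was 0 by edgeR and 2 by DESeq2, the log2 fold changes of the called Mcm5 and Uhrf1 being -0.96 and -1.35 by that tool. The TRV023 against AngII median of -0.36 was -0.16 with limma on log2(FPKM + 1) and -0.21 with library totals. The median of all genes was 0.13 and 0.15 in these fits. Relative to all genes the replication median was -0.29 and -0.36, against -0.37 in the main fit. The TRV023 against AngII median ranged from -0.43 to -0.23 as single libraries were left out, the latter without Trv_918. The count of genes lower with TRV023 against AngII, 11, was 3 with limma on log2(FPKM + 1), 4 with library totals and 17 without Veh_963, Los_964 and Los_965. Against losartan the count of 4 was 1, 1 and 11 in the same order, and 13 with the number series as a covariate. The cause was not tested. For TRV023 against vehicle the median stayed between -0.43 and -0.25 in all 16 alternatives. The count of 16 lower genes was 23 without Veh_963, the only rat of the highest animal numbers in that fit. For AngII against losartan the median was -0.04 with the number series as a covariate and -0.01 without Veh_963, Los_964 and Los_965. For AngII against vehicle it was -0.15 with that covariate. With limma on log2(FPKM + 1) it was -0.10, and 5 genes were lower at an unadjusted p. The median of all genes in that FPKM fit was -0.13. Relative to all genes the replication median was 0.03 there, against 0.05 in the main fit. No paired analysis was possible because the groups share no animal numbers. SEs on the log2 scale reached 0.59 (Cdc7, losartan against vehicle), in a gene whose losartan libraries ranged from 0.498 to 2.46 FPKM.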
